A study of Mus musculus with 3 samples.

Results

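The genes described here are 51 genes of the actin cytoskeleton in mouse bone-marrow-derived macrophages. They were chosen by gene symbol from a fixed list of actins, actin-binding proteins, myosin II chains, tropomyosins and the intermediate filament gene Vim. The rule names symbols and uses no measured value, although the list was drawn up with earlier results of these data known. The symbols matched 52 of 55536 annotated genes in the deposited gene tables, because Myl12b stands there in 2 gene entries. The RNA was the cytosolic fraction of total RNA, taken after ribosomal RNA depletion from primary macrophages of strain C57BL/6J. All cells had received 100 ng/ml Lipid A, the part of bacterial lipopolysaccharide that activates TLR4, for 12 h, then a washout of 12 h and a second exposure to 100 ng/ml Lipid A for 120 min. The labels give this 1 group with 3 biological replicates and no untreated cells, so levels were described within the group and no effect of Lipid A could be tested. The replicates share 1 donor entry, and since no label ties them to different animals or cultures, the spread between them can be technical.

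Actin monomers assemble into polar filaments that push the membrane forward, enclose particles during phagocytosis and carry tension. Thymosins and profilin hold the monomer pool, cofilin cuts old filaments, the Arp2/3 complex starts branches, cappers stop growth, bundlers and cross-linkers order the filaments, and myosin II pulls on them. Macrophages rely on this machinery for ruffling, podosomes and the uptake of microbes.

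Depth, as the sum of expected counts, was 29376859 in replicate 1, 64822118 in replicate 2 and 37665844 in replicate 3. Values are TPM (a level per transcript length, relative to the library total) of the deposited gene table, as mean ± SD with n = 3, unless another scale is named. The 7SL RNA genes Rn7s1 and Rn7s2 held 60.4%, 63.3% and 57.9% of all TPM, with the lowest share in replicate 3. Protein-coding genes held 32.5%, 26.5% and 27.1%, so TPM of replicate 1 were raised for most genes. Ratios within a library do not depend on this, and comparisons between libraries use CPM (counts relative to the library total) scaled by TMM, a correction for composition. The 8 macrophage markers of a fixed list were each at or above 1 TPM throughout, from Mertk at 25.7 ± 6.51 to Lyz2 at 2751 ± 2.59. None of 11 stromal and smooth muscle markers reached 1 TPM in every library, with a summed level of 0.56 to 0.62 TPM and Des and Col3a1 at 0 counts. No T cell or erythroid marker (5 each) and no B cell marker (5) reached it either. Of 5 platelet markers only Pf4 did, at 74.9 TPM, of 5 endothelial ones Kdr at 4.21 and Vwf at 2.50, and of 6 neutrophil ones S100a9 at 3.48 and S100a8 at 2.08.

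The actin genes and the thymosin genes are the most abundant related pairs of the list, and their coding sequences were compared. Reads also come from the rest of each transcript, so the comparison does not show how far the counted RNAs can be told apart. The first 90 coding bases of Actb and Actg1 from the leading transcripts of GENCODE M21 (mm10) are shown with capitals at the 16 bases that differ. The coding starts lie on the minus strand at base 142905686 of chromosome 5 (Actb-201) and base 120348091 of chromosome 11 (Actg1-202).
Actb: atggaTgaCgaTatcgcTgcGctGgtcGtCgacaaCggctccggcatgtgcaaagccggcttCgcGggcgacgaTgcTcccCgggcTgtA
Actg1: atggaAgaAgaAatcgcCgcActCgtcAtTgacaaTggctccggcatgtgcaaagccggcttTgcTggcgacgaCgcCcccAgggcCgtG

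Over the whole coding sequence of 1125 bases, 997 were identical (88.6%), and the longest identical run was 62 bases. The thymosins differed more. Their whole coding sequences of 132 bases without the stop codon are shown after alignment with gaps, in which 130 bases aligned and 95 were identical. Capitals mark the 37 bases of each sequence that differ from the other or face a gap. Both start on the minus strand, Tmsb4x-201 at base 167208036 of chromosome X and Tmsb10-203 at base 72958012 of chromosome 6.
Tmsb4x: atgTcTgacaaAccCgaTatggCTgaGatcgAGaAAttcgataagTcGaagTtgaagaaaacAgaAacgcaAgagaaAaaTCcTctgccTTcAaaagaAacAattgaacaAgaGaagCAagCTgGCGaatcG
Tmsb10: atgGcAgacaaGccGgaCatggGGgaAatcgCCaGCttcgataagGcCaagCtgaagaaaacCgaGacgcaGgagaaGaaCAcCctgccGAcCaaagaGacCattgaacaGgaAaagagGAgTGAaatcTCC

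As a group the genes were abundant. They held 5.44%, 5.68% and 6.01% of the protein-coding TPM of replicates 1, 2 and 3 (5.71% ± 0.289) and 4.40% ± 0.194 of the protein-coding expected counts. All 51 reached 1 TPM in every library, against 39.1% of the 22028 protein-coding genes. At 10 TPM the count was 47 members against 15.3% of protein-coding genes, at 100 TPM 25 members against 1.68%, and at 1000 TPM 2 members against 0.0726%. The median member stood at 107 ± 15.6 TPM, and the median of protein-coding genes of at least 1 TPM at 8.03 ± 0.594. Because of how the list was chosen, these shares are a description. The count at 100 TPM depends on the scale: it was 41 on TPM rescaled so that protein-coding and long noncoding genes sum to the total, 12 in the second deposited quantification and 41 in that quantification rescaled.

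**Figure D1:**
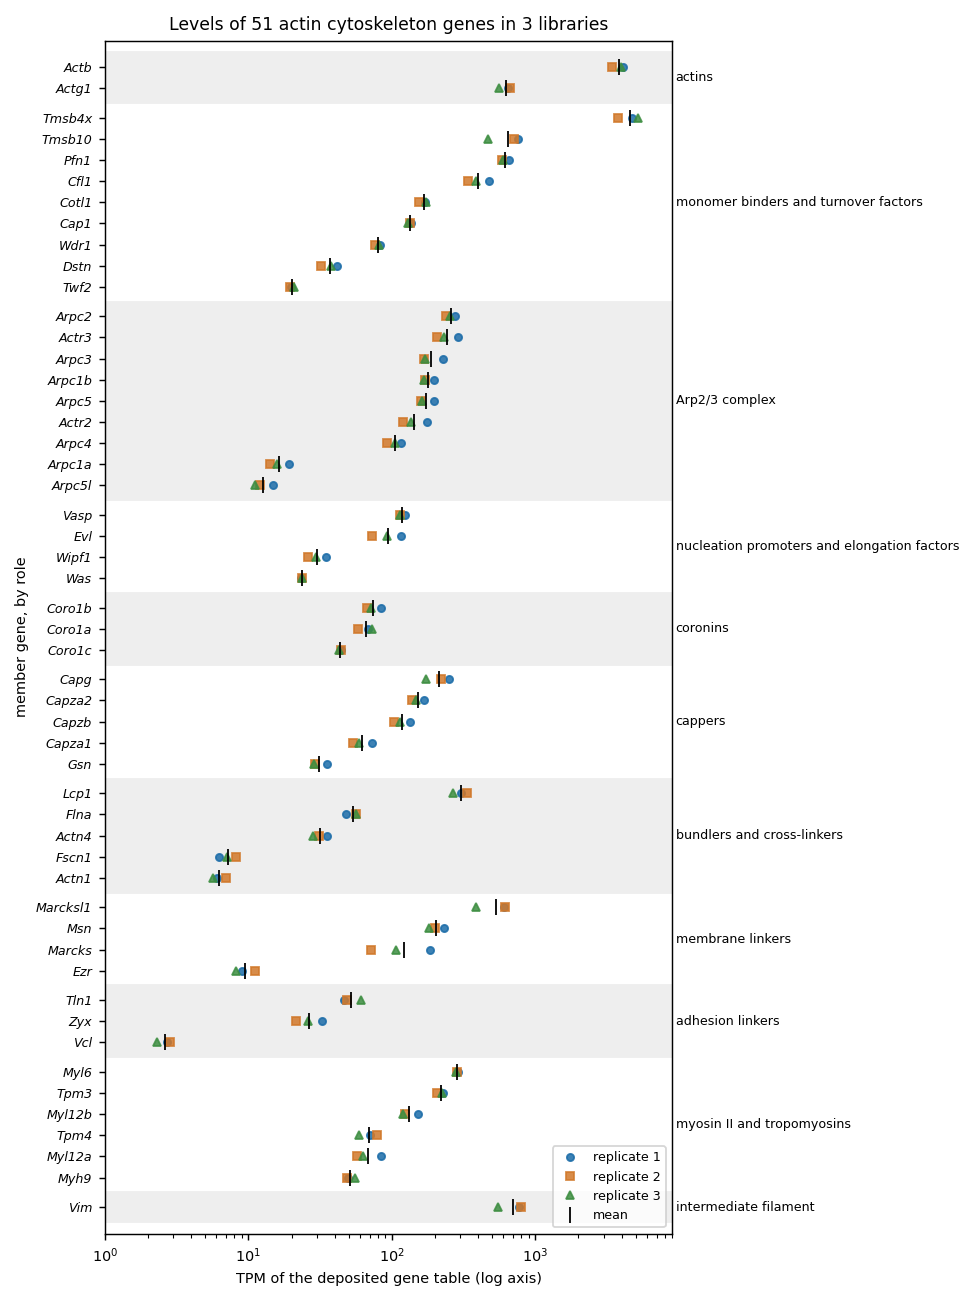
TPM of the deposited gene table (log axis) for each of the 51 genes, by role, with 1 symbol for each library and a bar at the mean. Tmsb4x and Actb stand above 1000 TPM in every library, and Vcl is lowest at 2.31 to 2.85 TPM.

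The levels spanned a 1738-fold range. Tmsb4x and Actb alone held 51.3% ± 4.32 of the members' summed TPM, and the 5 highest members 63.4% ± 1.99. By role, monomer binders and turnover factors held 40.8% ± 2.52 and the actins 27.2% ± 0.284, followed by the Arp2/3 complex at 8.04% ± 0.464. The medians of the role groups fell from 2223 ± 172 TPM in the actins and 702 ± 132 for Vim, through 173 ± 19.9 in the Arp2/3 complex, 167 ± 9.74 in the monomer binders, 163 ± 39.2 in the membrane linkers and 117 ± 15.8 in the cappers. Below these stood myosin II and tropomyosins at 104 ± 13.7, coronins at 66.0 ± 6.76, nucleation promoters and elongation factors at 62.0 ± 13.1, bundlers at 31.6 ± 3.49 and adhesion linkers at 26.6 ± 5.44. Several neighbours in this order lay within 1 SD of each other: the Arp2/3 complex, monomer binders and membrane linkers, the cappers and myosin II with tropomyosins, the coronins and nucleation promoters, and the bundlers and adhesion linkers.

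Actb, the cytoplasmic beta-actin and rank 6 of all protein-coding genes, stood at 4119, 3415 and 3930 TPM in replicates 1, 2 and 3 (mm10, ENSMUSG00000029580.14, chromosome 5, 142903115 to 142906754). Actg1, the cytoplasmic gamma-actin, stood at 646, 666 and 558 TPM (ENSMUSG00000062825.15, chromosome 11, 120345690 to 120348542). Actb lay above Actg1 in every library, by 2.62 ± 0.23 log2 units of TPM or 6.13-fold. Beta-actin RNA thus made up 85.9% ± 2.00 of the 2 actin RNAs. In the second quantification the log2 difference was 2.79 ± 0.21. Processed pseudogenes share long stretches with Actg1: Gm12715, 99.6% identical to it over 1128 bases, stood at 20.9 TPM, and how reads were divided between the copies is not given in the sources used here.

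The thymosins bind actin monomers and keep them from assembling. Tmsb4x, rank 4 of all protein-coding genes, stood at 4742, 3749 and 5208 TPM (ENSMUSG00000049775.16, chromosome X, 167207093 to 167209315). Tmsb10 stood at 757, 716 and 465 TPM (ENSMUSG00000079523.8, chromosome 6, 72957347 to 72958748). The pair moved apart in replicate 3, where Tmsb4x was at its highest and Tmsb10 at its lowest. Their log2 ratio was 2.65, 2.39 and 3.48, with a mean of 2.84 ± 0.57. Tmsb4x RNA exceeded Actb RNA in each library, with ratios of 1.15, 1.10 and 1.33 (1.16 ± 0.131 in the second quantification). The 2 thymosins together stood at 1.17 ± 0.0862 times the 2 actins.

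Among the other monomer binders, Pfn1, which loads ATP-actin onto growing ends, stood at 614 ± 36.5 TPM, or 0.138 ± 0.00584 times the actins. Cfl1, the non-muscle cofilin that severs filaments, stood at 473, 339 and 385 TPM, and its relative Dstn at 41.6, 32.4 and 37.5. Cfl1 was higher in every library, by 3.42 ± 0.08 log2 units or 10.7-fold, and together they made up 0.0978 ± 0.00908 of the actin level. Cotl1, a cofilin-fold protein that binds filaments, stood at 167 ± 9.74, Cap1, which recycles cofilin-bound monomers, at 133 ± 3.40, and Wdr1, a cofilin cofactor, at 79.8 ± 3.51. Twf2, a twinfilin that binds monomers and filament ends, was the lowest of the group at 19.8, 19.6 and 20.8 TPM.

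The Arp2/3 complex holds 7 subunits, and 2 of them have alternative genes among the members. Actr3b, a paralog of Actr3 outside the members, stood at 0.13, 0.14 and 0.19 TPM and was not counted with it. Taken by position, the levels lay close together. The lowest position in every library was Arpc4 at 116, 92.2 and 105 TPM. The highest on the mean was Arpc2, part of the core that binds the mother filament, at 277, 240 and 253, while Actr3, at 289, 208 and 230, was highest in replicate 1. The highest to lowest ratio within a library was 2.50 ± 0.10, and 2.16 ± 0.110 in the second quantification. Actr2 and Actr3, the actin-related subunits that seed the new filament, stood at 143 ± 28.5 and 242 ± 41.7, and Arpc3 at 189 ± 33.7. Their spreads overlap with those of several neighbours in that order. In the second quantification Actr2 at 64.5 TPM lay below Arpc4 at 67.6 in replicate 2. Actr3 had the highest mean there, at 130 against 127 for Arpc2. At the 2 positions with alternative genes among the members, 1 gene prevailed. Arpc1b stood at 198, 169 and 168 TPM and Arpc1a at 19.3, 14.1 and 15.7, a log2 difference of 3.45 ± 0.12 or 10.9-fold. Arpc5 stood at 196, 160 and 163 TPM and Arpc5l at 14.8, 12.0 and 11.1, a log2 difference of 3.78 ± 0.08 or 13.7-fold. Arpc5l overlaps exons of Rpl35 (93.5 TPM) on the opposite strand, and the processed pseudogene Gm15899 shares 238 identical bases with Actr3 and was listed at 45.8 TPM. Whether the counting used strand is not given in the sources used here.

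**Figure D2:**
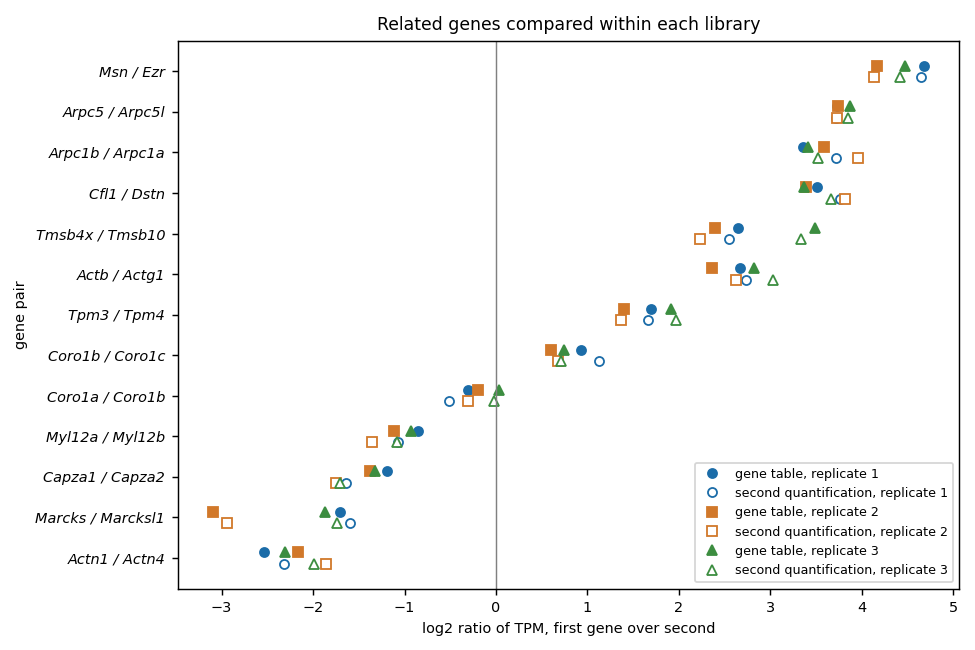
log2 ratio of TPM between related genes within each library, with filled symbols for the deposited gene table and open symbols for the second quantification. In 12 of 13 pairs every filled symbol lies on 1 side of 0, and the exception is Coro1a with Coro1b.

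Of the factors that switch on the Arp2/3 complex or extend filaments, Vasp was highest at 123, 114 and 115 TPM, and Evl, of the same Ena/VASP family, stood at 117, 72.8 and 92.2. Was, the haematopoietic activator of Arp2/3 mutated in Wiskott-Aldrich syndrome, was the lowest and among the evenest on this scale at 23.2, 23.7 and 23.8 TPM. On TMM-scaled counts, which remove the difference in composition, Was had a coefficient of variation of 10.5%. Wipf1, the partner that stabilises it, stood at 30.1 ± 4.21, or 1.28 ± 0.196 times Was.

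The coronins, which help remove Arp2/3 from branches, were near one another. Coro1a, the form typical of blood cells, stood at 68.0, 58.5 and 73.1 TPM, Coro1b at 84.2, 67.0 and 71.6, and Coro1c at 44.3, 44.2 and 42.8. Coro1a and Coro1b could not be ordered, since their log2 ratio was -0.31, -0.20 and 0.03 in replicates 1, 2 and 3. Coro1b exceeded Coro1c in every library by 0.76 ± 0.16 log2 units. Bola2, at 31.7% of the Coro1a level, overlaps Coro1a exons on the opposite strand.

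Capping proteins bind the fast-growing filament end. Capg, a gelsolin relative first known from macrophages, was the highest at 249, 221 and 173 TPM. Gsn, gelsolin, which severs and caps in response to calcium, was the lowest at 35.2, 29.1 and 28.7, and the 2 did not overlap. Capping protein is a pair of an alpha and a beta chain. Capza2 at 167, 139 and 148 TPM exceeded Capza1 at 73.0, 53.5 and 59.1 in every library, and the log2 ratio of Capza1 to Capza2 was -1.30 ± 0.10 (-1.69 ± 0.06 in the second quantification). The 2 alpha chains together stood at 1.82 ± 0.0426 times the beta chain Capzb, itself at 117 ± 15.8 TPM.

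Among the bundlers and cross-linkers, Lcp1, the leukocyte plastin, stood apart at 301, 336 and 269 TPM. The next was Flna, filamin A, at 53.3 ± 4.87, then Actn4 at 31.6 ± 3.49 and Fscn1, fascin, at 7.18 ± 1.01. Actn1 was the lowest at 6.07, 6.96 and 5.69 TPM. Of the non-muscle alpha-actinins, Actn4 was thus the higher in every library, and the log2 ratio of Actn1 to Actn4 was -2.34 ± 0.18. The ratio was -2.06 ± 0.24 in the second quantification. On protein-coding transcripts only, an alternative added after seeing the data, it was -1.70.

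The membrane linkers held a wide range. Marcksl1, a small relative of the protein kinase C substrate Marcks, was the highest at 604, 614 and 388 TPM. Msn, moesin, which ties filaments to the membrane, stood at 230, 201 and 181 TPM and its relative Ezr, ezrin, at 8.99, 11.2 and 8.16. Moesin was higher in every library, by 4.44 ± 0.26 log2 units or 21.7-fold, the widest gap of the 13 pairs. Marcks itself stood at 186, 72.1 and 107 TPM, and replicate 1 was well above the others. The log2 ratio of Marcks to Marcksl1 was -1.70, -3.09 and -1.87.

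The adhesion linkers, which couple integrins to actin, had the lowest group median, within 1 SD of the bundlers. On protein-coding transcripts only, an alternative added after seeing the data, the bundlers were lower, at 19.6 TPM against 24.6. Tln1, talin, which activates integrins, stood at 46.2, 48.7 and 60.8 TPM and Zyx, zyxin, at 26.6 ± 5.44. Vcl, vinculin, which binds talin under tension, was the lowest of all 51 genes at 2.72, 2.85 and 2.31 TPM (ENSMUSG00000021823.10, chromosome 14, 20929398 to 21033676). The Vcl transcript shares 2094 bases with Ap3m1 on the opposite strand, which stood at 18.9 TPM.

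Of the myosin II chains, the light chain RNAs exceeded the heavy chain RNA. Myh9, the heavy chain of non-muscle myosin IIA, was the lowest of the group at 49.2, 49.1 and 55.8 TPM. Myl6, the essential light chain, was the highest at 292, 284 and 278 TPM, or 5.57 ± 0.502 times Myh9 (4.55 ± 0.925 in the second quantification). The regulatory light chains Myl12a and Myl12b together stood at 3.93 ± 0.792 times Myh9.

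The order of the regulatory light chains depends on 1 gene entry. Myl12a stood at 84.3, 57.3 and 62.9 TPM. The main Myl12b entry (ENSMUSG00000034868.9, chromosome 17, 70973133 to 70990890) stood at 97.1, 74.8 and 76.9. A second entry of that name (ENSMUSG00000117098.1, chromosome 17, 70974119 to 71002208) stood at 55.4, 49.1 and 42.9 TPM and shares exons with both genes. The coding sequence of its transcript Myl12b-206 matches Myl12a in 515 of 516 bases and Myl12b in 499. With both Myl12b entries summed, the log2 ratio of Myl12a to Myl12b was -0.97 ± 0.13. With the second entry counted with Myl12a, an alternative added after seeing the data, it was 0.50, so the order of these genes was not settled.

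Tropomyosins wrap along filaments and set which proteins can bind. Tpm3 stood at 228, 208 and 224 TPM and Tpm4 at 70.5, 78.9 and 59.4, a log2 difference of 1.67 ± 0.26 in favour of Tpm3. Vim, vimentin, the intermediate filament protein of mesenchymal and blood cells, stood at 765, 792 and 550 TPM. Replicate 3 was the lowest for Vim, as it was for Tmsb10, Marcksl1, Capg, Lcp1 and others. On TMM-scaled CPM it was the lowest library for 20 of 51 members, beside 19 for replicate 1 and 12 for replicate 2. The matching shares over all genes were not computed here.

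Replicate differences were tested on counts, and such a test compares these libraries and not conditions. The chi-square test of rounded expected counts with TMM-scaled library sizes found 49 of the 51 genes to differ between libraries beyond counting error (Benjamini-Hochberg adjusted p under 0.05 over 14568 genes), where 72.0% of all genes tested did. It was 81.1% among genes with at least 100 counts in every library, and 89.8% among genes with at least 597, the lowest count of any member. The members' count is therefore not a result particular to them. The 2 not called were Coro1b and Arpc5l, with adjusted p of 0.0522 and 0.0749 by that test. Leaving out 1 library left 40 to 46 members called, beside 52.5% to 57.1% of all genes tested. Those shares are not limited to genes of the members' depth, for which none was computed here.

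In size the differences were mostly small. On TMM-scaled CPM, 46 of 51 members (90.2%) differed by less than 1.5-fold between the highest and lowest library, against 83.1% of the genes with at least 100 counts in every library. The median coefficient of variation was 9.46% for the members, 11.3% for those genes, and 10.4% for genes with at least 597 counts. Coro1b at 2.26%, Arpc2 at 2.58% and Arpc4 at 2.64% were the evenest. Actb, often used as a reference gene, had 2.76%, with 11146, 11158 and 11694 CPM.

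The uneven members were 5. Marcks stood at 1136, 531 and 719 TMM-scaled CPM, a 2.14-fold span with replicate 1 highest. Marcksl1 stood at 1336, 1642 and 946, and Tmsb10 at 423, 493 and 285, both lowest in replicate 3 and spanning 1.74-fold and 1.73-fold. Fscn1 stood at 20.7, 34.8 and 27.6 and Ezr at 42.3, 63.5 and 41.4, both highest in replicate 2 and spanning 1.68-fold and 1.53-fold. By role, the median coefficient of variation was highest in the membrane linkers at 26.1% and the bundlers at 18.7%, and 6.33% in the monomer binders. The nuclear RNA Malat1 was also uneven at 1015, 719 and 6078 TMM-scaled CPM, and its part in the values that are low in replicate 3 was not tested. The 8 macrophage markers summed to 10390.0, 12530.0 and 10990.0 TMM-scaled CPM, with 2 of them highest in replicate 1, 5 in replicate 2 and 1 in replicate 3. Their part in the uneven members was not tested. In bulk RNA, fewer cells of a type and less RNA per cell cannot be told apart.

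**Figure D3:**
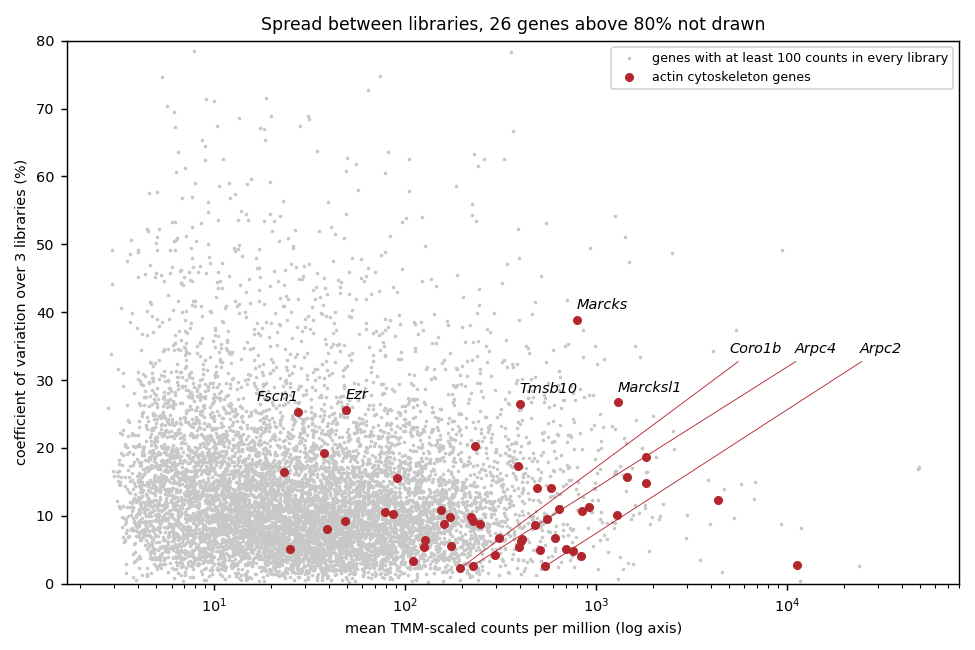
Coefficient of variation over the 3 libraries against the mean TMM-scaled CPM (log axis), for genes with at least 100 counts in every library (grey) and the 51 actin cytoskeleton genes (red). The 5 uneven members named lie above 25%, the 3 evenest below 3%, and 26 grey genes above 80% are not drawn.

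The highest library depended on the scale. On TPM, 34 of 51 members were highest in replicate 1, beside 63.0% of genes with at least 100 counts in every library, 10 in replicate 2 (17.3% of all) and 7 in replicate 3 (19.7%). On TMM-scaled counts 18 were, beside 35.5%, while 26 were highest in replicate 2 (44.5% of all) and 7 in replicate 3 (20.1%).

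The members have 362 annotated transcripts in all, and most genes were carried by 1 of them. A single transcript held over 50% of the gene's TPM in every library for 46 members, and over 90% on average for 31. The transcript with the highest mean share was the same in both quantifications for 50, all but Vim. Evl, Arpc4, Wipf1, Myl12b and Vim had no such majority. Evl-207, a transcript of 569 bases, held 44.5% ± 3.38 of Evl, and Arpc4-203 held 44.0% ± 1.73 of Arpc4. The share of the leading transcript varied most between libraries for Capza2, where Capza2-201 held 86.3%, 60.8% and 78.8%.

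For Vim the leader changed with the table, and in the first table with the library. Vim-201, which encodes the protein, held 45.3%, 39.1% and 41.3% of Vim TPM there. A further protein-coding transcript, Vim-206, held 14.2%, 9.41% and 19.0%. The retained-intron transcript Vim-203, of 535 bases, held 40.2%, 51.3% and 39.0%. As a single transcript, Vim-203 thus led in replicate 2 and on the mean, at 43.5% ± 6.78 against 41.9% ± 3.15 for Vim-201. In replicates 1 and 3 Vim-201 led. In the second table Vim-201 led on the mean at 59.7% ± 7.44. Counting protein-coding transcripts only, an alternative added after seeing the data, Vim stood at 391 ± 61.9 TPM in place of 702.

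In the first transcript table, transcripts not annotated as protein-coding held a median of 1.02% of a member's TPM and over 10% in 5 members. After Vim at 43.8% ± 6.59 came Actn4 at 37.96% ± 3.23, Flna at 31.2% ± 2.27, Myl12b at 25.1% ± 0.523 and Tln1 at 17.1% ± 10.4. In the second table the median was 1.86% and 10 members were over 10%, of which 4 were shared with the first: Vim, Actn4, Myl12b and Tln1. Flna fell under that limit there at 5.76% ± 5.29, while Actn1 stood at 21.1% ± 2.64 (3.57% in the first table), Myh9 at 20.5% ± 3.69 (1.30%) and Arpc1b at 20.2% ± 4.96 (8.07%). Coro1b, Arpc5l and Capza2 were just over it, at 10.4%, 10.3% and 10.03%. For Tln1 the libraries differed in the first table, at 6.54%, 17.3% and 27.3% in replicates 1, 2 and 3. Replicate 3, the highest for Tln1, also held the highest level of Malat1, and the part of nuclear RNA in the Tln1 share was not tested. Creb3, at 33.9% of the Tln1 level, overlaps Tln1 on the opposite strand.

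**Figure D4:**
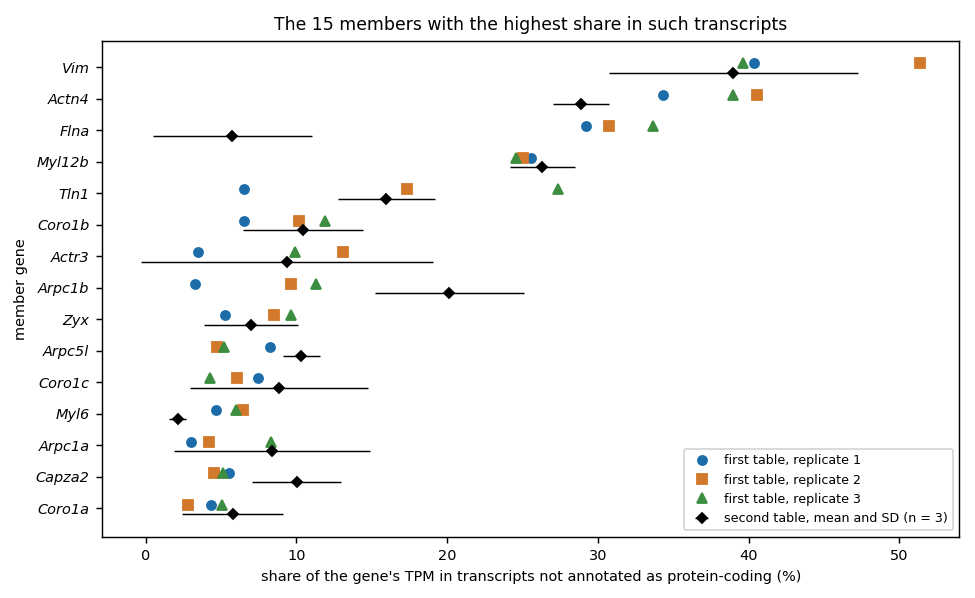
Share of a gene's TPM in transcripts not annotated as protein-coding (%), for the 15 members where it was highest in the first transcript table, per library in that table and as mean with SD (n = 3) in the second. Vim and Actn4 are high in both tables, Flna is high in the first at 31.2% against 5.76%, and Actn1 and Myh9, high in the second only, are not drawn.

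Genes that steer the same machinery were described from further lists. The WAVE complex, which activates Arp2/3 at the leading edge, had a median of 18.8 ± 4.34. In every library 8 of its 11 genes reached 1 TPM, beside 39.1% of all protein-coding genes. Its highest genes were Nckap1l, the haematopoietic Nap1 relative, at 80.7 ± 5.63, Abi1 at 67.2 ± 10.5 and Cyfip1 at 57.0 ± 2.94. Nckap1, the form of other tissues, stood at 0.89, 1.19 and 0.74 TPM, and of the WAVE proteins Wasf2 stood at 35.4 ± 2.37 while Wasf1 and Wasf3 were listed at 0. The formins, which extend unbranched filaments, were lower than the WAVE complex, with a median of 1.59 ± 0.0643. Of the 10 formins, 6 reached 1 TPM in every library, beside the same 39.1%. Diaph1 at 16.8 ± 1.60, Diaph2 at 13.7 ± 2.09 and Fmnl1 at 6.98 ± 1.03 were the highest and Daam2 at 0.0833 ± 0.0115 the lowest. The kinases and slingshot phosphatases of actin turnover had a median of 5.50 ± 0.249, from Pak2 at 22.9 ± 2.15, Rock1 at 14.0 ± 1.79 and Pak1 at 10.6 ± 0.819 to Limk2 at 1.14 ± 0.204.

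Muscle actins and most of the listed paralogs of the members were below 1 TPM. None of the 4 muscle actins reached 1 TPM, the highest being Acta2 at 0.08, 0.16 and 0.06 TPM, and Actc1 and Actg2 had 0 counts. Of 36 paralogs of the members, 24 were below 1 TPM in every library and 8 had 0 counts in all. In every library 11 reached 1 TPM, beside 39.1% of all protein-coding genes, so low levels are not particular to this list. Those present included Flii, a gelsolin relative, at 39.8 ± 2.69, the twinfilin Twf1 at 28.8 ± 1.13 and Coro2a at 21.2 ± 3.26. Twf1 exceeded the member Twf2 in every library. Of the ERM family, Rdx, radixin, stood at 15.6 ± 1.43, above Ezr and below Msn.

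**Figure D5:**
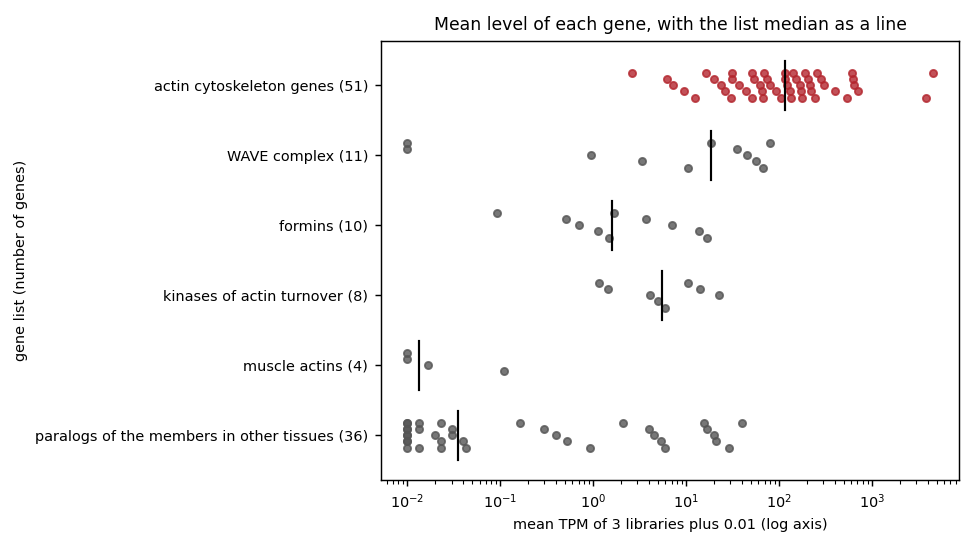
Mean TPM plus 0.01 (log axis) of each gene in the 51 members (red) and in 5 other lists (grey), with a line at the list median and the number of genes in brackets. The WAVE complex and the formins lie lower than the members, and the muscle actins lie at the left edge near 0.

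Serum response factor, which with its actin-sensing cofactors drives many cytoskeletal genes, binds the CArG box. This box was searched in RefSeq promoter windows (GRCm38.p6, 250 bases before to 50 after the gene start), and since its pattern is its own reverse complement both strands give the same matches. Windows of 45 members were searched, and the other members are Actb, Arpc5l, Coro1b, Cotl1, Marcks and Twf2. A box was found in 4 of 56 member windows (7.14%), those of Actg1, Arpc4, Myl6 and Vcl, and in 1.63% of all 32851 windows. The 2 whose boxes lie outside annotated exons are shown in the direction of the gene with the box in capitals. They span chr11:120348556-120348605 (minus strand) and chr14:20929151-20929200 (plus strand), and the boxes start 90 and 227 bases before the gene start as RefSeq gives it, which for Actg1 differs from the GENCODE end printed above.
Actg1: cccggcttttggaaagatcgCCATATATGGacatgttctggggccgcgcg
Vcl: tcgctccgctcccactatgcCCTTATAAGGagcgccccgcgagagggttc

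These genes stood far apart in level, Actg1 at 624 ± 57.3 TPM and Vcl at 2.63 ± 0.282. A match describes the letters only, and no binding was measured.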

How the data were processed

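The deposited files give, per library, a gene table and 2 transcript tables. Per the file headers, expected counts and TPM fill the gene table and one transcript table. The other transcript table holds estimated counts with TPM, also per the file headers, and was summed here per gene as the second quantification. The authors took TPM over all 81881 rows, tRNA and spike-in rows included. Those rows name no gene, made up 0.350% (replicate 1), 0.169% (replicate 2) and 0.168% (replicate 3) of expected counts, and stayed out of library sizes. The build was mm10 with GENCODE M21, and the aligner and quantifiers were not given in the sources used here.

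Expected counts were rounded for TMM scaling (edgeR 4.0.16), DESeq2 1.42.0 size factors and a chi-square test with 2 degrees of freedom on genes of at least 10 counts in 1 library. The test was checked on simulated counts with counting error only. That check covers the calculation and not the spread between these libraries. R 4.3.3, Python 3.11.15, pandas 2.3.3, scipy 1.17.1 and BLAST 2.17.0 were used. Near copies were hits of at least 95% identity over 150 bases or more.

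Members, role groups, pairs and lists were chosen with earlier results of these data known. Full values were given for the highest and lowest gene of each role group, the 13 pairs, and the 5 most and 3 least variable members, and of other lists the 3 highest and the lowest. Nckap1, Wasf2, Twf1 and Rdx were compared after their values were seen. The list of upstream regulators is not reported here.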

Additional observations from a re-analysis of the deposited data

How the results depend on the processing

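The members' share of protein-coding TPM was 5.73% in the second quantification, 5.98% on protein-coding transcripts only and 5.56% to 5.85% without 1 library. The number of members at 100 TPM or more, 25, became 41 on rescaled TPM, 12 in the second quantification and 41 in the second quantification on rescaled TPM, and was 25 to 27 without 1 library. The order of the 11 role groups by median was the same in the second quantification. With group means only 3 groups kept their place, and with protein-coding transcripts only 7 did. Without 1 library 9 did in each case. The number of pairs with 1 order in every library was 12 or 13 under each alternative, and the log2 ratio of Myl12a to Myl12b reversed to 0.50 with the second Myl12b entry counted with Myl12a. The count of members that differ between libraries was 49 with DESeq2 size factors (beside 71.8% of all genes tested) or no count filter (50.3%). It was 50 with at least 100 counts in every library and adjustment over those genes only (81.6%), and 40 to 46 without 1 library (52.5% to 57.1%). A leading transcript held over 50% in 45 members in the second table and in 46 or 47 without 1 library. Of the remaining 194 values of single groups and pairs, 164 moved by no more than 1 SD, 29 by more and 1 reversed. Many of the 164 could not move further. With 3 libraries, leaving out 1 always shifts a mean by less than 1 SD. A filter at 1 TPM dropped no member, and TMM-scaled CPM per kb gives the same ratios as TPM. The alternatives for the Myl12b entries change only the pair of Myl12a and Myl12b. The count of 164 is therefore no measure of robustness. No paired analysis was possible because the labels give 1 group. Depth limits the lowest members most, Fscn1 at 597 and Vcl at 633 counts in replicate 1. A sign-flip test on 3 libraries cannot give a p below 0.25, so no pair was tested.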
